A study of Mus musculus with 2 samples.

Results

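The tumour-draining lymph node (dLN) was compared with a non-draining lymph node (ndLN) taken from the same animal, in 4 C57Bl6 mice carrying subcutaneous MC38-OVAdim tumours, a mouse colon carcinoma line that expresses a form of ovalbumin. Cells were assigned to a node by the tissue name in the deposited cell annotation, which gave 7937 node cells of 12458 cells in all, 4671 from dLN and 3266 from ndLN. The remaining 4521 cells came from the tumours. The mice were 2 Havcr2 fl/fl controls, called WT1 and WT2, and 2 Havcr2 knockouts, KO1 and KO2. Havcr2 is the gene for TIM-3, which dampens the responses of T cells and dendritic cells. All animals bore a tumour, so neither node is that of a tumour-free mouse. Neither the source of the recombinase nor the cell types that lost the gene were stated in the labels. Nodes were digested with Liberase and DNAse, and CD45+ cells were sorted with enrichment for dendritic cells, so shares of cells below describe the sorted suspension and not the intact node. The 6 tissue samples of WT1 and KO1 were tagged with oligo-labelled CD45 antibodies and pooled in 1 channel of a 10X Chromium 5′ library, and those of WT2 and KO2 in the other.

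A draining node receives lymph, antigen and migrating dendritic cells from the tumour bed, whereas a non-draining node samples other tissue and is reached by tumour signals only through the blood. Naive T and B cells circulate through both and leave along a sphingosine-1-phosphate gradient sensed by S1PR1. Type I interferon, made by plasmacytoid dendritic cells and other cells, acts through the receptor IFNAR to induce antiviral genes such as Isg15 and the Ifit family.

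The node libraries held 574 to 1457 cells per mouse and node, with a median of 3778 to 5285 unique molecular identifiers (UMIs, one per captured transcript) per cell. The median over all dLN cells was 4520 UMIs and over all ndLN cells 4633. The targeted gene followed the labels in each node. Mean Havcr2 levels in dLN and ndLN were 0.0848 and 0.0982 UMIs per 10000 in WT1 and 0.0453 and 0.0571 in WT2, against 0.00867 and 0.00484 in KO1 and 0.00459 and 8.80e-04 in KO2. The knockout samples held 10, 4, 10 and 3 Havcr2 UMIs in that order. Among node cells, 28 barcodes occurred in both channels. Immunoglobulin and T-cell receptor constant genes are not in the deposited matrix of 12638 genes. Each genotype rests on 2 mice. The limma p-values rest on the spread between these animals, with each gene's variance drawn toward that of genes at a like level.

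The largest mean shift in share was in B-like cells. Clustering of the node cells gave 21 clusters, which were grouped into classes by marker genes. B-like cells, marked by Cd79a and Ms4a1, formed 19.5% of dLN cells and 17.7% of ndLN cells in WT1, 23.1% and 20.1% in WT2, 30.7% and 19.5% in KO1, and 48.5% and 33.9% in KO2. The dLN share was above the ndLN share within every mouse, by 7.64 ± 6.20 percentage points (SD, n = 4 pairs), although the 4 dLN values overlapped the 4 ndLN values. NK-like cells went the other way, at 0.939% ± 0.578 of dLN cells and 1.71% ± 0.426 of ndLN cells (SD, n = 4), lower in dLN in 4 of 4 mice but resting on 43 and 56 cells. For both classes an exact two-sided sign-flip permutation test over the 4 pairs gave the smallest p that 4 pairs can reach, which is above 0.05, and an adjusted p of 0.923 (Benjamini-Hochberg over the 16 classes tested). In KO2, 430 of its 706 B-like dLN cells belonged to one of the 3 B-like clusters (cluster 1), against 60 of 332 in its ndLN.

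Other classes moved in opposite directions in the 2 genotypes. Mature dendritic cells, the migratory form marked by Fscn1 and Ccl22, made up 19.6% of dLN and 16.1% of ndLN cells in WT1 and 15.7% and 15.3% in WT2. The same class fell from 11.1% in ndLN to 4.13% in dLN in KO1 and from 2.86% to 1.58% in KO2. CD8 T-like cells were 20.8% and 20.1% in WT1, 23.6% and 21.0% in WT2, 17.1% and 22.5% in KO1, and 10.7% and 19.6% in KO2, dLN first. CD4 T-like cells showed the same order of signs, from 16.2% against 13.7% in WT1 to 9.40% against 13.1% in KO2. Since shares of one sample sum to a fixed total, a higher B-like share and lower T-like and dendritic shares are not separate measurements. The difference in shares between genotypes was not tested, and with 2 mice against 2 no permutation test could pass 0.05. In a summed or averaged sample, fewer cells of a type and less RNA per cell cannot be told apart, which holds for each all-cell value below.

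**Figure D1:**
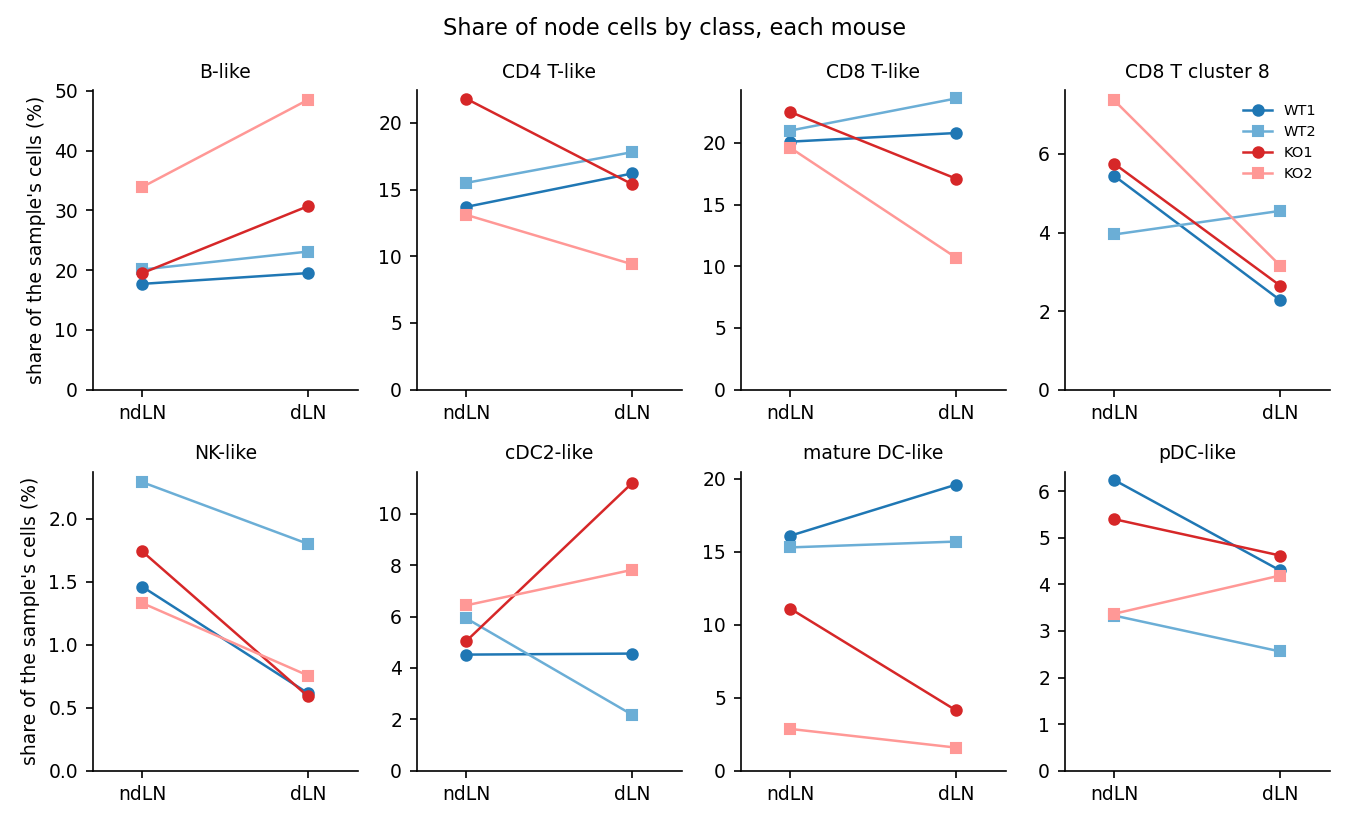
Share of each sample's cells (%, vertical axis from 0) in 8 classes, in ndLN (left) and dLN (right) of each mouse, with a line joining the nodes of one animal; blue is WT, red is KO, circles are channel 1 and squares channel 2. B-like lines rise and NK-like lines fall in all 4 mice, while the CD4 T-like, CD8 T-like and mature DC-like lines rise in both WT mice and fall in both KO mice.

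When every cell of a node was averaged, no gene separated dLN from ndLN consistently enough in the 4 mice to pass the test. Of 9023 genes, 0 (0%) had an adjusted p under 0.05 with limma and mouse as a block, 582 had an unadjusted p under 0.05, and limma-voom on the recovered UMIs also called 0. The smallest adjusted p was 0.260. Without WT2, 2 genes passed. The pattern of the gene lists nevertheless had a clear order, which the plot of list medians shows. All 13 B-cell genes tested were above 0, with a median log2 difference of 0.41, and 9 of them were higher in dLN in all 4 mice, where 8.97% of all genes were. Cytotoxic effector genes had a median of -0.48 and 6 of 11 were lower in dLN in all 4 mice, where 5.43% of all genes were. Natural killer genes had a median of -0.53 with 3 of 6 lower in all 4 mice. The median over all genes was 0.02.

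The genes with the smallest p-values were in part B-cell genes and in part genes of effector lymphocytes. Fcer2a, the low-affinity IgE receptor CD23 of follicular B cells, was measured at 1.18 and 1.05 UMIs per 10000 in dLN and ndLN of WT1, 1.31 and 0.975 in WT2, 2.10 and 1.12 in KO1, and 3.18 and 1.89 in KO2. Its log2 difference was 0.55 ± 0.110 (SE; limma adjusted p = 0.661), and with B-like cells left out it turned to -0.09. H2-Eb2 and H2-DMb2, class II genes with high levels in B cells, had differences of 0.55 and 0.45. Ccl6, a chemokine of myeloid cells, was higher in dLN in every mouse, at 0.285 against 0.166 in WT1, 0.505 against 0.140 in WT2, 0.186 against 0.0912 in KO1 and 0.438 against 0.179 in KO2. These dLN values lay above all 4 ndLN values, and the difference was 1.00 ± 0.148 (SE; limma adjusted p = 0.270). Il1b, the inflammatory cytokine interleukin 1β, differed by 0.47 ± 0.0915 (SE; adjusted p = 0.661).

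Among genes lower in dLN, Ahnak, a large scaffold protein of antigen-experienced lymphocytes, was 0.820, 0.980, 0.896 and 0.698 in dLN of WT1, WT2, KO1 and KO2 and 1.21, 1.41, 1.25 and 1.28 in ndLN, without overlap. Its difference was -0.58 ± 0.0792 (SE; limma adjusted p = 0.260). Ccr10, a homing receptor for skin and mucosa, was 0.0257, 0.145, 0.0127 and 0.0260 in dLN and 0.198, 0.236, 0.131 and 0.169 in ndLN, in the same order of mice. WT2 was the high dLN sample, and the difference was -1.33 ± 0.186 (adjusted p = 0.260). Ccr10 is among the leading genes of CD4 T-like cluster 7. This cluster held 3.68% of dLN and 4.25% of ndLN cells in WT1 and 5.02% and 6.14% in WT2. It held 3.24% and 5.75% in KO1 and 3.09% and 5.83% in KO2, and its part in Ccr10 was not tested. Il2rb, the β chain of the interleukin 2 and 15 receptors, was lower by -0.60, Ctla2a, a protease inhibitor of activated lymphocytes, by -0.66, and Trat1, a T-cell receptor adaptor, by -0.51. Il2rb and Ctla2a are among the leading genes of CD8 T cluster 8, on average 3.16% of dLN and 5.63% of ndLN cells. That share was lower in dLN in 3 of 4 mice, and its part in the 2 genes was not tested. Genes read as markers of node state showed no regular shift: Ccr7, the homing receptor of naive T cells and mature dendritic cells, differed by -0.14, Cd69 by -0.23, Cd274 (PD-L1) by 0.15 and Cxcl10 by -0.14, none past the test. MHC class I genes had a median of -0.03, and 4 of 12 were lower in all 4 mice. Mitochondrial transcripts were lower in dLN in all 4 mice for 10 of 13 genes, with a median of -0.09, while the median mitochondrial percentage of a cell was 2.50 to 2.81 in dLN and 2.60 to 2.79 in ndLN samples.

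**Figure D2:**
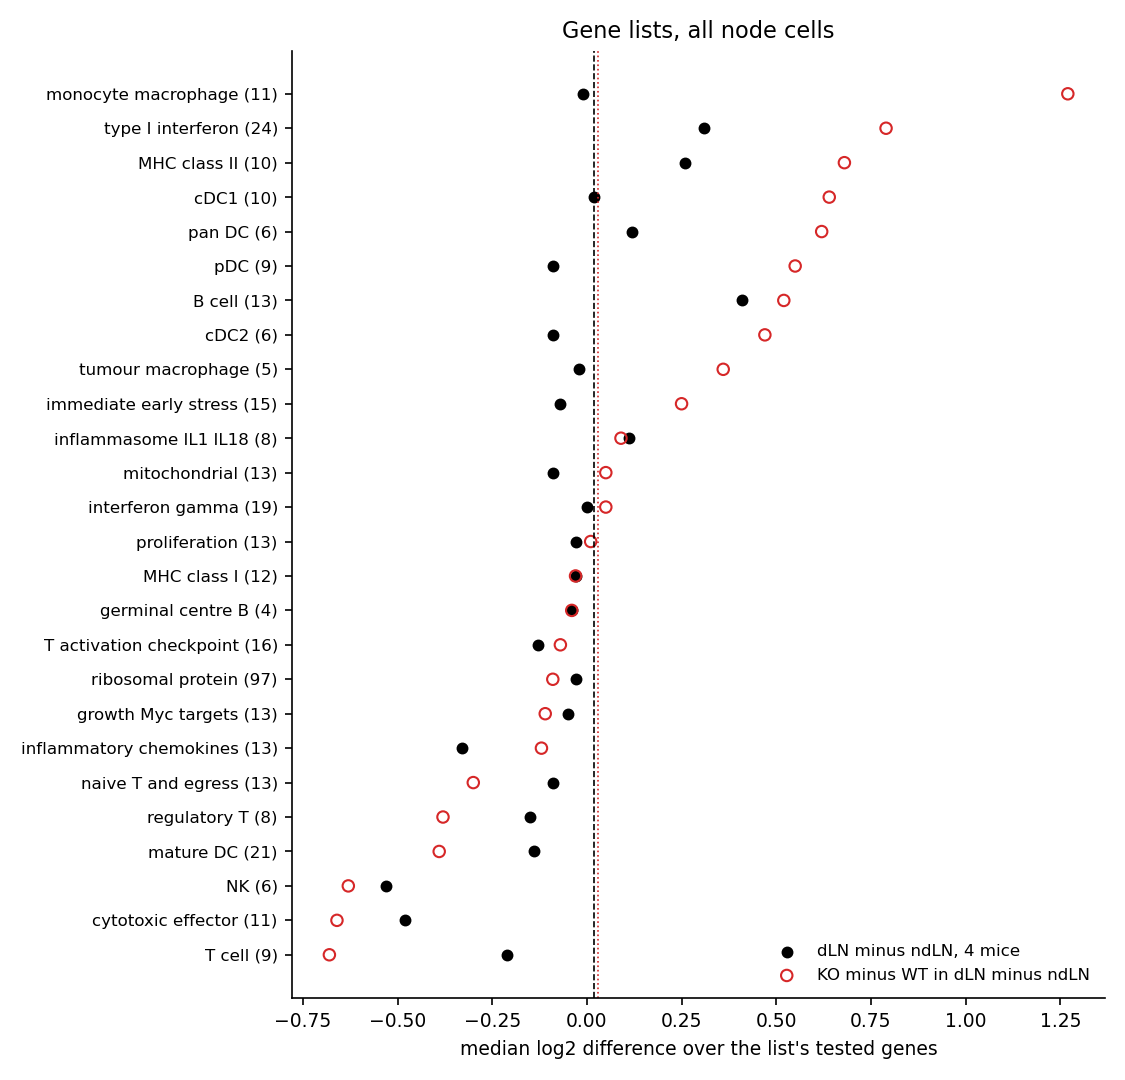
Median log2 difference of each gene list (horizontal axis; number of genes tested in brackets) over all node cells: filled black points are dLN minus ndLN over 4 mice, and open red circles are the KO value of that difference minus the WT value; dashed and dotted lines mark the medians of all 9023 genes, 0.02 and 0.03. B-cell genes lie to the right and cytotoxic and NK genes to the left on both scales, while interferon genes are at 0.31 and 0.79 and monocyte and macrophage genes at -0.01 and 1.27.

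The 2 genotypes differed in what set dLN apart from ndLN. The dLN minus ndLN difference was itself compared between KO and WT mice (an interaction term in limma), and 186 of 9023 genes (2.06%) passed an adjusted p of 0.05, 135 higher in KO (1.50%) and 51 lower (0.565%). Genes called higher or lower in KO are so in this difference, and not necessarily in level. Without a separation test, 24.6% of all genes had both KO differences above both WT differences and 16.1% had both below, so such an order alone is common here. Interferon-stimulated genes were called more often than that background. Of 24 list members tested, 11 rose in KO dLN relative to ndLN beyond the WT change and 0 fell: Isg15, Ifit1, Ifit3, Irf7, Oasl2, Bst2, Ifi27l2a, Rtp4, Xaf1, Ly6a and Trim30a. The list's median was 0.79, beside 0.03 for all genes, and 20 of the 24 had both KO mice above both WT mice.

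Isg15, a ubiquitin-like antiviral protein (GRCm38 chr4:156199424-156200818, minus strand), was measured in dLN and ndLN at 0.624 and 0.535 UMIs per 10000 in WT1, 0.725 and 1.67 in WT2, 0.991 and 0.396 in KO1, and 1.00 and 0.557 in KO2. Both KO mice were higher in dLN, WT1 was nearly level, and the ndLN of WT2 was the highest of the 8 samples. The KO minus WT value was 1.48 ± 0.314 (SE; limma adjusted p = 0.0312), 1.02 within channel 1 and 1.95 within channel 2. Without WT2 it was 0.80 and still past the test, and without KO1 it was 1.27 and no longer past it. Ifit3, which binds other IFIT proteins on foreign RNA (chr19:34583531-34588731, plus strand), was 0.0566 and 0.0665 in WT1, 0.0958 and 0.256 in WT2, 0.223 and 0.0205 in KO1, and 0.263 and 0.0718 in KO2. The KO dLN values exceeded both WT dLN values, and the difference between genotypes was 2.26 ± 0.317 (SE; adjusted p = 0.00245), 2.08 and 2.43 within the channels. Irf7, the transcription factor that amplifies type I interferon production, was 0.539 and 0.744 in WT1, 0.742 and 0.882 in WT2, 1.19 and 0.478 in KO1, and 1.19 and 0.623 in KO2. It was lower in dLN in both WT mice and higher in both KO mice, with a difference of 1.39 ± 0.162 (SE; adjusted p = 5.17e-04).

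Ifi27l2a, a small interferon-induced mitochondrial protein and the most abundant of these transcripts, was 4.73 and 4.46 in WT1, 6.68 and 7.51 in WT2, 7.44 and 3.62 in KO1, and 9.67 and 5.14 in KO2, with a difference of 1.01 ± 0.102 (SE; adjusted p = 2.04e-04). Rtp4 differed by 1.35, Xaf1 by 1.24, Ly6a by 1.04, Ifit1 by 1.61, Oasl2 by 0.97, Trim30a by 0.68 and Bst2, also called tetherin, by 0.55. Cxcl9, a chemokine induced by interferon gamma, was lower in WT dLN than ndLN (0.415 against 0.870 in WT1 and 0.220 against 0.653 in WT2) and higher in KO dLN (0.357 against 0.215 in KO1 and 0.285 against 0.245 in KO2), a difference of 1.58 ± 0.208 (SE; adjusted p = 0.00150). Cxcl9 also led the genes of the cDC1-like cluster, which held 3.60% of dLN and 5.71% of ndLN cells in WT1, 2.08% and 2.91% in WT2, 6.58% and 2.61% in KO1, and 3.36% and 3.48% in KO2. With classes weighted alike in every sample, the Cxcl9 difference was 0.79 and no longer passed; the part of these shares in it was not tested. As a list, genes of the interferon gamma response did not follow: 2 of 19 passed, and the median was 0.05. The number of interferon genes past the test ran from 7 without KO1 to 15 without WT1. Of the 11, Oasl2, Trim30a, Isg15 and Ifit1 lost the call when one or another mouse was left out, Ifit1 at 1.14 without WT2 and 1.34 without KO1, and Oasl2 at 0.85, 0.90 and 1.04 without WT2, KO1 and KO2.

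**Figure D3:**
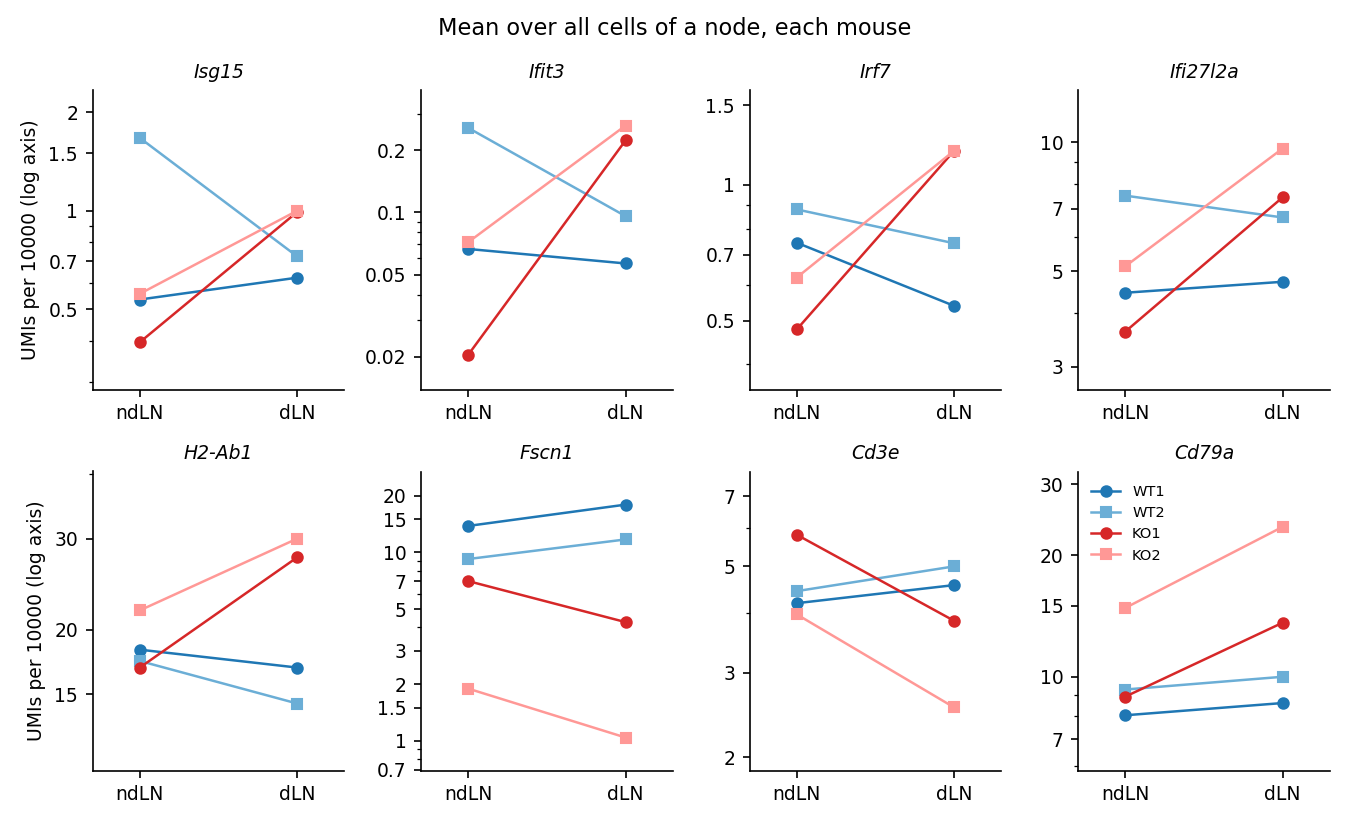
Mean level of 8 genes over all cells of a node (UMIs per 10000, logarithmic axis) in ndLN (left) and dLN (right) of each mouse; blue is WT, red is KO, circles are channel 1 and squares channel 2. Isg15, Ifit3, Irf7, Ifi27l2a and H2-Ab1 rise from ndLN to dLN in both KO mice and in at most 1 WT mouse, Fscn1 and Cd3e fall in KO and rise in WT, and Cd79a rises in all 4 mice, more in KO.

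Promoters are shown for some list genes that carry the repeat bound by the interferon-activated factors. Isg15, Ifit1 and Ifit3 passed the genotype test in all cells, whereas Rsad2 passed it in CD8 T-like cells and not in all cells. The windows are the 250 bases before the start site in RefSeq (GRCm38.p6), written 5′ to 3′ on the gene's strand, with capitals on each match to GAAANNGAAA on either strand (its reverse complement reads TTTCNNTTTC). The Isg15 window is chr4:156200819-156201068 (minus strand), that of Ifit1 chr19:34640639-34640888 (plus), that of Ifit3 chr19:34583279-34583528 (plus) and that of Rsad2, an antiviral enzyme also called viperin, chr12:26456453-26456702 (minus).
Isg15: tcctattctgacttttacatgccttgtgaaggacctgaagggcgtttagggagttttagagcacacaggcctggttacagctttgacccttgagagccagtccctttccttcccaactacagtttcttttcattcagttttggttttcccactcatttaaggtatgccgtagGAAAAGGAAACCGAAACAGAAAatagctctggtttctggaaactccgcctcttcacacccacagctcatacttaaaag
Ifit1: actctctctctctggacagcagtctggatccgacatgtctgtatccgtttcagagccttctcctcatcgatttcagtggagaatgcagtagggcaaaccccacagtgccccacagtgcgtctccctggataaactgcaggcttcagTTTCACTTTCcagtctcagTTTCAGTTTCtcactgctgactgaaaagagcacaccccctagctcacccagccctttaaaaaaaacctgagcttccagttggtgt
Ifit3: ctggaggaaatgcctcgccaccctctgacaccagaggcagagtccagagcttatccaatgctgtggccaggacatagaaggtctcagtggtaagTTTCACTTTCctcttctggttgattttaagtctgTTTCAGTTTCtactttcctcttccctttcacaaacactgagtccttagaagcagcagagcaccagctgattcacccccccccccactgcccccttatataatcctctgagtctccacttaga
Rsad2: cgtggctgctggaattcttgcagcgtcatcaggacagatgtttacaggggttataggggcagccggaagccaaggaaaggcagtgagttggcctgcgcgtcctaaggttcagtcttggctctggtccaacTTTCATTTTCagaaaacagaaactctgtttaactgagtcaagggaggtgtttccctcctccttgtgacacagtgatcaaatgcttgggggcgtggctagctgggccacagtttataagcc
Of the 24 interferon genes tested, 17 were found by symbol in the promoter table and 10 of these held a match (58.8%), against 821 of 27025 promoters (3.04%) and 202 of 7010 tested genes with a promoter (2.88%). The Isg15 run holds 3 overlapping matches, Ifit1 and Ifit3 hold 2 each on the other strand, and Rsad2 holds 1. The windows of Irf7, Oasl2 and Xaf1, which also passed the test in all cells, hold no such run of letters. Oas1a, Rsad2, Stat2, Slfn5 and Phf11b, which did not pass in all cells, do hold a match. The list was picked as known interferon-stimulated genes, so its higher share of matches comes with that choice and is no result of these data. A match describes the sequence only. No other motif was searched.

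Genes that mark cell types were also among those that differed between genotypes. The B-cell, T-cell and mature dendritic lists went in the direction of the shares of those classes, and the part of the shares in them was not tested. All 10 MHC class II genes passed, with a median of 0.68. H2-Ab1 was 16.9 and 18.3 in WT1, 14.4 and 17.4 in WT2, 27.6 and 16.9 in KO1, and 30.0 and 21.8 in KO2, dLN first, a difference of 0.77 ± 0.0879 (SE; limma adjusted p = 4.15e-04), and Ciita, the master regulator of these genes, differed by 1.00. For T cells 7 of 9 genes were lower in KO, Cd3e by -0.76. In the mature dendritic cell list 7 of 21 were lower, Fscn1 by -1.13, Ccl22 by -1.14 and Il12b by -1.16, and for B cells 4 of 13 were higher, Cd79a by 0.54. Ccl5 had the value -1.23 and Gzma -1.96, the latter -2.99 without KO1 and -0.94 without KO2. When each class was given the same weight in all 8 samples, 19 genes passed in place of 186 and 17 of them were among the 186. No member of the class II, T-cell or mature dendritic lists remained: H2-Ab1 was then -0.03, Cd74 0.02, Fscn1 0.00 and Cd3e -0.09. Ccl5 stood at 0.08. Fxyd2, among the leading genes of mature DC-like cluster 11 but on none of these lists, kept its call at -1.79. Of the 11 interferon genes, 8 remained, with Isg15 at 1.78, Ifit3 at 2.24, Irf7 at 1.12 and Ifi27l2a at 0.96. Myeloid genes taken up below remained as well: C1qa at 2.01, C1qb at 2.64, C1qc at 2.43, Arg1 at 1.92, S100a8 at -2.93 and S100a9 at -3.36. Such weights count a class alike however few its cells, and cluster 14 had 3 cells in the ndLN of KO1. Newly called were Il1b at -0.79 and Jchain at 1.88. The antibody-secreting-like class, led by Jchain, had 1 cell in the dLN and 0 in the ndLN of KO1.

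Hspa1a, an inducible heat-shock protein, and Jun, an immediate early transcription factor, also kept their call with equal class weights. Jun was 2.00 and 1.90 in WT1, 1.79 and 1.98 in WT2, 3.73 and 1.72 in KO1, and 4.55 and 2.20 in KO2, so both KO dLN samples stood above the other 6. The difference between genotypes was 1.10 ± 0.114 (SE; limma adjusted p = 2.04e-04) over all cells and 0.72 with equal weights. Hspa1a was 3.58 and 3.94, 4.30 and 4.35, 7.79 and 3.72, and 10.2 and 6.04 in the same order, a difference of 0.98. Of the 15 immediate early and stress genes, 4 rose and 0 fell, with a median of 0.25. Such genes also respond to digestion and handling of cells, and the part of handling in this difference was not tested.

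The largest values came from a small group of myeloid cells. The dLN minus ndLN difference of C1qb, a complement subunit made by macrophages, was higher in KO by 3.64. That of C1qc was higher by 2.97, of C1qa by 2.83 and of Arg1, the arginase of macrophages, by 2.36. S100a8 and S100a9, calprotectin subunits of neutrophils and monocytes, had values of -2.60 and -2.98. Levels were not higher throughout KO nodes. Arg1 was 0.0263 and 0.231 UMIs per 10000 in dLN and ndLN of WT1 and 0.0275 and 0.170 in WT2. In KO1 it was 0.0713 and 0.0240, and in KO2 0.0739 and 0.0307, so its highest levels were in WT ndLN. Cluster 14, an unnamed myeloid cluster led by Lyz2, S100a9 and C1qb, held only 116 cells. Its cells numbered 10 in dLN and 17 in ndLN of WT1, 14 and 17 in WT2, 16 and 3 in KO1, and 28 and 11 in KO2. In the dLN of WT1 1 cell with S100a8 UMIs in this cluster gave 99.0% of the sample's S100a8, and in that of WT2 4 cells gave 98.9%. Without cluster 14 the C1qa value was 0.41, C1qb 0.82, C1qc 0.55, Arg1 0.27, S100a8 0.04 and S100a9 -0.10, none past the test, and 128 genes passed in all. Interferon genes changed little by that step, with Isg15 at 1.43 and Ifit3 at 2.25. In the tumours of the same mice C1qa was 23.8 to 37.0 UMIs per 10000, against 0.0595 to 0.590 in the nodes.

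The interferon difference was present within single classes. In CD8 T-like cells (129 to 249 per sample), 9 of 7939 genes (0.113%) differed between genotypes, all higher in KO. They were the interferon genes Rsad2, Ifit3, Isg15, Xaf1, Rtp4, Irf7 and Ifi27l2a, with Hspa1a and Klf2, a transcription factor of quiescent T cells that drives S1pr1. Isg15 was 0.611 and 0.590 in dLN and ndLN of WT1, 0.675 and 2.04 in WT2, 1.39 and 0.321 in KO1, and 1.78 and 0.701 in KO2. The KO dLN samples were above both WT dLN samples and the WT2 ndLN sample was above all others, giving 2.36 ± 0.330 (SE; limma adjusted p = 2.23e-04). Ifit3 differed by 2.95, Ifi27l2a by 1.25 and Klf2 by 0.54. All 24 interferon genes tested were above 0 and 19 had both KO mice above both WT mice, where 17.1% of all genes did, and the list median was 0.90 beside -0.00. The ndLN of WT2 carried part of this: without WT2, 3 genes passed, only 1 of them from the list (Ifi27l2a at 1.10), and Isg15 stood at 1.58 and Ifit3 at 2.39, no longer past the test. Without KO1, 40 genes passed and without KO2, 14. The class joins clusters 3 and 4, and cluster 4 held 46.4% of its dLN and 54.3% of its ndLN cells in WT1, 43.4% and 31.2% in WT2, 55.7% and 40.3% in KO1, and 71.2% and 26.0% in KO2; the part of this mix in the differences was not tested.

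In pDC-like cells (27 to 61 per sample), 9 of 8594 genes (0.105%) differed between genotypes, 8 higher in KO (0.0931%) and 1 lower (0.0116%). Isg15 was 0.206 and 0.345 in WT1, 0.596 and 2.86 in WT2, 1.04 and 0.194 in KO1, and 1.44 and 0.0412 in KO2. It was lower in dLN in both WT mice and higher in both KO mice, by 4.49 ± 0.593 between genotypes (SE; limma adjusted p = 4.81e-05), and 3.71 without WT2. Ifi27l2a differed by 1.66. Klf4, a zinc-finger transcription factor, was the gene that fell, by -2.96, and lost its call without WT1 (-2.15) or KO1 (-2.65). mt-Cytb, a mitochondrial transcript, differed by 0.77, with 3 other mitochondrial transcripts past the test. Ly6a also passed but helps define the cluster. The interferon list had a median of 1.41, and all 22 genes tested were above 0. Without WT1, 41 genes passed, without KO1 14, and without KO2 18.

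In B-like cells 4 of 8226 genes (0.0486%) differed, all higher in KO: Ifit3, Ifi27l2a, Hspa1a and Jun. The first pair help define cluster 20, a set of 31 B-like cells led by Ifit3, Oasl1 and Ifit2, and so are not counted as results; that cluster had 8 cells in the dLN of KO1, 18 in that of KO2, 2 in that of WT2 and 0 in that of WT1, with 0 to 2 in each ndLN. Hspa1a in B-like cells was 4.41 and 5.40 in WT1, 6.92 and 5.60 in WT2, 10.7 and 4.48 in KO1, and 13.4 and 7.92 in KO2, a difference of 0.99 ± 0.165 (SE; limma adjusted p = 0.0101), and Jun differed by 0.97. Cluster 1 held 26.1% of the dLN and 39.1% of the ndLN B-like cells in WT1, 22.5% and 9.33% in WT2, 38.7% and 22.3% in KO1, and 60.9% and 18.1% in KO2, and its part in both genes was not tested. Hspa1a and Jun lost the call without KO1 and without KO2 (Hspa1a 0.74 and 1.24, Jun 0.77 and 1.17), and Jun also without WT1 (0.77). Without WT2 19 genes of the class passed, and without KO2 0. In cluster 8, CD8 T cells with Eomes and Il2rb, 2 of 7862 genes (0.0254%) passed: Ifi27l2a at 1.76 and Lars2, a mitochondrial tRNA synthetase, at 1.24. Ifi27l2a lost the call without WT1 (1.64), WT2 (1.89) or KO1 (1.32). Without WT2 0 genes passed, and without KO1 and KO2 4 and 8.

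The CD4 T-like, cDC2-like, cDC1-like and mature DC-like cells had 0 genes (0%) past the test for the difference between genotypes, with 398, 403, 353 and 379 genes at an unadjusted p under 0.05. Their interferon list medians were 0.32, 1.10, 0.96 and 0.32. In mature DC-like cells Isg15 was 0.665 and 0.549 in WT1, 0.799 and 0.416 in WT2, 3.18 and 0.314 in KO1, and 2.28 and 0.286 in KO2, higher in dLN in all 4 mice, with 2.41 ± 0.436 between genotypes (SE; adjusted p = 0.927). That class held only 23 cells in the dLN and 28 in the ndLN of KO2. Without KO1, 1160 of its genes passed, and without KO2 55, each from a fit to 3 mice. In CD4 T-like cells 18 passed without KO1, 5 without WT1 and 2 without WT2, and in cDC2-like cells 14 passed without WT1 and 2 without WT2. Whether the interferon difference is larger in one class than in another was not tested.

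**Figure D4:**
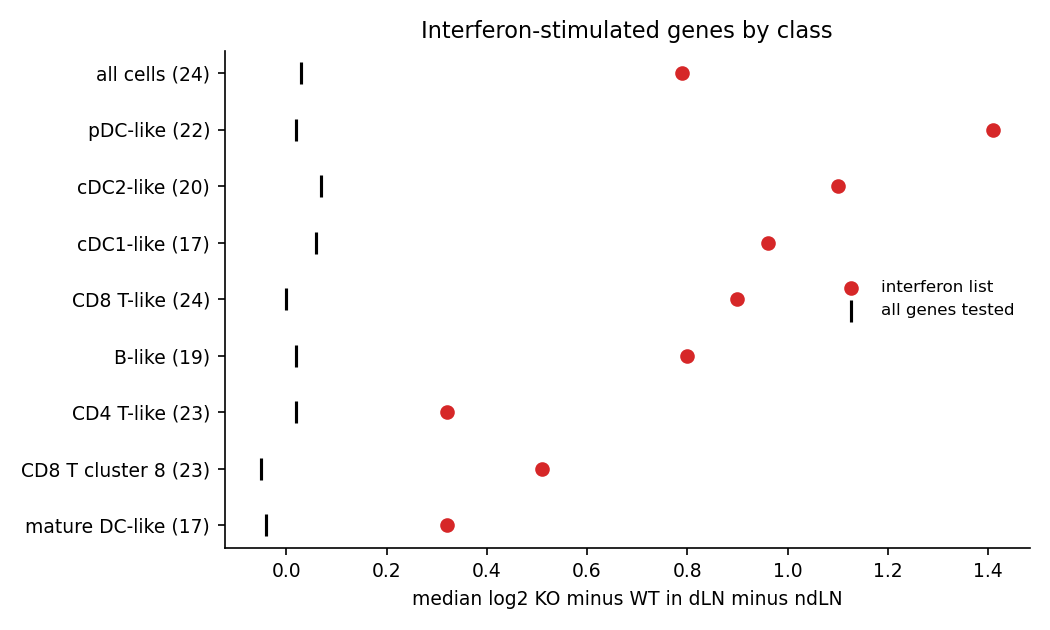
Median, over the interferon-stimulated genes tested in each class (number in brackets), of the log2 KO minus WT value of the dLN minus ndLN difference (red points), beside the median of all genes tested in that class (black bars). The list median is above the all-gene median in each of the 9 rows, from 0.32 in CD4 T-like and mature DC-like cells to 1.41 in pDC-like cells.

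Differences between dLN and ndLN over all 4 mice were most numerous in CD4 T-like cells in the limma fit of mean values, while limma-voom called 26 genes there and 28 in cDC2-like cells. In CD4 T-like cells (103 to 188 per sample), 55 of 8430 genes (0.652%) differed between dLN and ndLN, 8 higher (0.0949%) and 47 lower (0.558%). Of the 55, 12 help define one of the 2 clusters that form the class and are not reported as results. Of 11 cytotoxic effector genes tested, 3 were lower in dLN and 1 was higher, with a list median of -0.53 beside -0.00 for all genes. The 3 lower genes include Cxcr6, which helps define one of these clusters and is not counted as a result. Nkg7, a cytotoxic granule protein, was 0.802 and 1.12 in dLN and ndLN of WT1, 1.14 and 2.92 in WT2, 0.533 and 1.40 in KO1, and 0.455 and 2.02 in KO2. All 4 mice were lower in dLN, by -1.28 ± 0.166 (SE; limma adjusted p = 6.18e-06). Ccl5, the chemokine RANTES, was 1.99 and 2.38, 2.70 and 7.45, 5.94 and 8.48, and 0.218 and 2.49 in the same order, a difference of -1.36 ± 0.215 (SE; adjusted p = 2.50e-04), and -0.74 without KO2. Fcer1g, a signalling adaptor usually of innate cells, fell by 1.62 on the log2 scale, and lost its call without WT2 (-1.29) or KO1 (-1.37). Cd8a, the coreceptor of the other T lineage, fell by 1.15, so reads or cells of CD8 type were present in the class and fewer in dLN; their part in the other genes was not tested.

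In CD4 T-like cells of dLN, 3 of 15 immediate early and stress genes were lower and 0 higher, with a list median of -0.33, and 1 of 7 MHC class II genes was lower, with a median of -0.20. Junb, an immediate early factor, ran from 12.9 to 22.7 in dLN and from 15.6 to 34.0 in ndLN, lower in dLN in each mouse, a difference of -0.54 ± 0.0969 (SE; limma adjusted p = 0.00113) that was -0.26 and short of the test without KO2. Dusp1, a phosphatase induced with it, fell by 0.44, in 3 of 4 mice. H2-D1, an MHC class I heavy chain, was 18.8 and 22.1, 21.9 and 29.0, 19.9 and 23.1, and 19.8 and 22.5, lower in dLN in every mouse by -0.26 ± 0.0474 (SE; adjusted p = 0.00137). H2-K1 fell by 0.17, and Cd74, the class II invariant chain, by 0.54. MHC class I genes as a list had a median of -0.18 beside -0.00 for all genes, with 2 of 12 past the test.

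Among the 8 genes higher in dLN, S1pr1, the egress receptor, was 1.63 and 1.28 in WT1, 1.73 and 1.09 in WT2, 1.57 and 1.41 in KO1, and 1.91 and 0.704 in KO2. Every dLN value lay above every ndLN value, and the difference was 0.63 ± 0.149 (SE; limma adjusted p = 0.0285). Ppic, a cyclophilin, was higher by 1.25, Gskip, a binding protein of the kinase GSK3, by 1.22 and Acss2, which makes acetyl-CoA from acetate, by 0.90, each in 4 of 4 mice. Ifi27l2a was 10.9 and 6.60, 8.71 and 11.2, 12.1 and 6.42, and 14.6 and 7.36, higher in dLN in 3 mice and lower in WT2, by 0.56 ± 0.107 (SE; adjusted p = 0.00245). Gzma, a granzyme, passed at 1.65 although it was higher in only 2 of 4 mice and 0 in both nodes of KO2. Each of these 6 lost its call without at least 1 mouse. Without KO2, 19 of the class's genes passed in all, with S1pr1 at 0.38, and without WT1 22. Leaving the mouse out as a block gave 11 calls.

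The make-up of the class changed with the node as well. Cluster 7, CD4 T cells with Icos, Maf and Cxcr6, held 22.7% of the class in dLN and 31.1% in ndLN of WT1, 28.2% and 39.6% in WT2, 21.0% and 26.4% in KO1, and 32.8% and 44.5% in KO2, a lower share in dLN in each mouse. The other cells were cluster 2, with Lef1 and Igfbp4. Within cluster 2 alone 0 of 8033 genes (0%) passed, with 420 at an unadjusted p under 0.05. Within cluster 7 alone (32 to 59 cells per sample) 19 of 8819 (0.215%) passed, 7 higher (0.0794%) and 12 lower (0.136%), 7 of which help define it. Ppic had a value of 2.30 and Ifi27l2a of 1.01 there, and Fcer1g of -2.61 and Ccl5 of -1.38. For the difference between genotypes, 3 genes passed within cluster 2 alone (0.0373%) and 2 within cluster 7 alone (0.0227%), the latter being Ccl5 at -1.45 and Klf4.

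**Figure D5:**
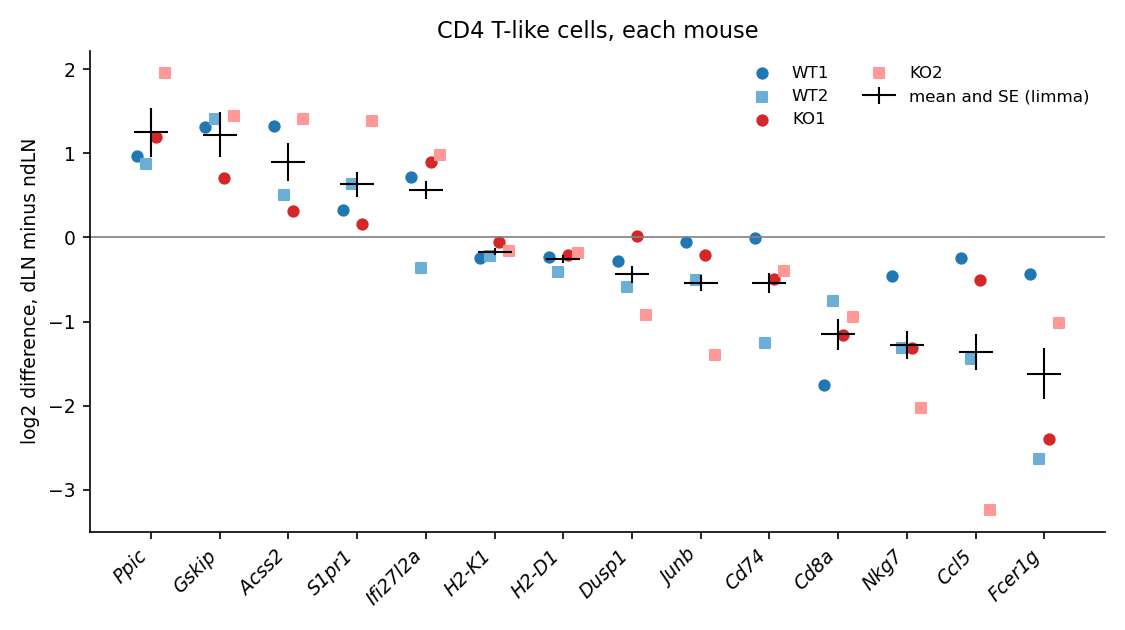
Log2 difference between dLN and ndLN (vertical axis) of 14 genes in CD4 T-like cells; points are the 4 mice (blue WT, red KO, circles channel 1, squares channel 2), and black marks are the limma mean with its SE. S1pr1, Ppic, Gskip and Acss2 are above 0 in all 4 mice and Ifi27l2a in 3, while Nkg7, Ccl5, Cd8a, Fcer1g, H2-D1 and H2-K1 are below 0 in all 4.

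In cDC2-like cells (23 to 114 per sample), named after type 2 conventional dendritic cells for Cd209a and Mgl2, 8 of 8512 genes (0.0940%) were higher in dLN and 0 lower. Of these, 5 help define the cluster, among them Lyz1, Lyz2, Ccl6 and Ear2. The others were Ifi27l2a, Jun and Fn1. Jun was 3.12 and 1.53 in WT1, 4.73 and 2.41 in WT2, 4.17 and 1.90 in KO1, and 5.79 and 3.01 in KO2. All 4 dLN values lay above all 4 ndLN values, and the difference was 1.00 ± 0.132 (SE; limma adjusted p = 0.00789). Ifi27l2a was 4.38 and 2.18, 11.1 and 6.37, 5.59 and 2.04, and 6.34 and 2.36, higher in dLN in both genotypes by 1.16 ± 0.138 (SE; adjusted p = 0.00789). Fn1, the matrix protein fibronectin, was 0.429 and 0, 0.631 and 0.0416, 0.168 and 0.0216, and 1.23 and 0.0102, a difference of 3.04 that depends on the pseudocount. On average, a cDC2 marker was detected in 48.1% of the cells of this class and a monocyte marker in 41.0%. Monocyte and macrophage genes in these cells had a median of 0.64 and 11 of 12 were above 0, and their part in the other differences was not tested. Without WT1, KO1 and KO2 the class had 4, 3 and 4 genes past the test and without WT2 18; Jun lost its call without KO1 or KO2, Ifi27l2a without KO1, and Fn1 without WT1 or KO2.

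Nr4a3, a nuclear receptor of the Nr4a family, which is induced within minutes to hours of receptor signalling, was lower in dLN in pDC-like and cDC1-like cells. In pDC-like cells 4 of 8594 genes (0.0465%) passed, all lower: Nr4a1, Nr4a3, Tnfsf9 (4-1BB ligand) and Vps37b, a sorting protein. Nr4a3 was 0.397 and 0.664 in WT1, 0.950 and 2.30 in WT2, 1.92 and 2.97 in KO1, and 0.575 and 2.43 in KO2, lower in dLN in each mouse by -1.13 ± 0.206 (SE; limma adjusted p = 0.0258). Nr4a1 was 3.20 and 3.62, 6.53 and 11.5, 7.39 and 11.6, and 3.90 and 12.9, a difference of -0.84 ± 0.152 (adjusted p = 0.0258). Tnfsf9 had a value of -1.35 and Vps37b of -1.19. None of the 4 passed without KO2 (Nr4a1 -0.54, Nr4a3 -0.84), 2 genes passed without KO1, neither of them among these 4, and 20 passed without WT2. In cDC1-like cells (15 to 67 per sample), the cross-presenting dendritic cells with Xcr1 and Clec9a, 3 of 8098 genes (0.0370%) passed, all lower, 1 of which helps define the cluster. Nr4a3 was 0.528 and 1.28 in WT1, 0.122 and 1.97 in WT2, 0.850 and 7.13 in KO1, and 0.613 and 2.72 in KO2. The 4 dLN values lay below the 4 ndLN values, and the difference was -2.45 ± 0.299 (SE; adjusted p = 0.00726). Gadd45b, a stress-inducible gene, differed by -1.24.

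CD8 T-like cells had 2 of 7939 genes (0.0252%) past the test between nodes, 1 in each direction (0.0126% each). Gm42418, a transcript that overlaps a ribosomal RNA repeat, was higher in dLN by 0.39 ± 0.0433 (SE; limma adjusted p = 1.13e-06), and Gm26532, a non-coding transcript, was lower by -0.85 ± 0.146 (adjusted p = 0.00612). Without WT2 or KO1 17 genes passed, and without KO2 1. In B-like and mature DC-like cells and in cluster 8, 0 genes passed (0%), with 417, 377 and 438 at an unadjusted p under 0.05, and limma-voom called 6, 5 and 4. Without KO1 1 gene passed in B-like cells, without WT2 1 in mature DC-like cells, and in cluster 8 each fit without 1 mouse gave 3 or 4.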

How the data were processed

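Single-cell 5′ RNA libraries of CD45+ cells were aligned and counted by the authors with Cell Ranger 3.0.2 on mm10, per the submitters' processing notes. The deposited matrix holds natural log values, ln(1 + UMIs per 10000), with an annotation that names each cell's mouse and tissue. Values were back-transformed to UMIs per 10000, and UMIs were recovered as whole numbers (within 0.01) for 100% of values. No column lacked a sample. No doublet caller was run here, and whether doublets were removed before deposit is not given in the sources used here.

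Each gene was averaged over all cells, or over a class, per mouse and node, and tested as log2(mean + 0.05) with limma 3.58.1 (R 4.3.3, trend on) for genes with a mean of at least 0.05. Mouse was a block, since both nodes come from 1 animal. The own-mouse correlations of deviations were 0.47, 0.32, 0.10 and 0.60. Between mice they ran from -0.63 to 0.30, and the dLN of KO1 had 0.30 with the ndLN of KO2, above the 0.10 with its own. Benjamini-Hochberg adjusted p under 0.05 was the threshold. Fold changes on this scale understate the change of low genes. Channel paired the genotypes weakly, with a same-channel correlation of 0.09. The model was run on simulated counts with known changes, and every call among the changed genes had the right sign. The simulation held no shift in cell shares between nodes, so it does not bear on calls that come from such shifts. The 7937 node cells were clustered (2000 variable genes, 30 principal components, 15 neighbours, Leiden resolution 1), classes were named from marker genes, and a class needed 20 cells in each sample. cDC1-like cells were added with 15, and their fits without 1 mouse were not run. Names rebuilt this way may differ from those of the study.

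Named genes were those past the threshold with one sign in all mice, ranked by size. For the genotype difference, both KO values had to lie above or below both WT values in place of one sign. Also named were list members past the threshold and a short set given whatever their test. Where fewer than 5 passed, the 5 with the smallest p in each direction were taken. The members and lists were chosen with earlier results of these data known. Alternatives covered pseudocounts of 0.01 and 1, no filter, summed UMIs and each mouse left out. Limma-voom, mean log values and no block were run for dLN against ndLN only, and not for the genotype difference. Channel was run as a block for the genotype difference only. Resolution 2 and clustering with tumour cells were applied to shares only. Over all cells, the alternatives also covered leaving out B-like cells or cells with at least 5% mitochondrial UMIs, weighting classes alike and rescaling. Chosen after seeing the data were the fits without cluster 14 and those of clusters 2 and 7 alone and of cDC1-like cells. So were, for the genotype difference, all alternatives run for it but the pseudocounts and no filter. Some genes are not reported here.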

Additional observations from a re-analysis of the deposited data

Results flagged for a closer look

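With 4 samples in each node, a sample was singled out where its gap to the nearest of the others took up more of the range than Dixon's 95% critical value for 4 samples allows. This held for 14 of 196 gene groups and 2 of 32 share groups, and chance gives about 1 in 20. The ndLN of WT2 accounted for 7. Its Isg15 was 1.67 UMIs per 10000 (others 0.396 to 0.557) and its Ifit1 0.239 (0.0455 to 0.0676). In its CD8 T-like cells Rsad2 was 0.332 (0 to 0.0331), in its pDC-like cells Isg15 was 2.86 (0.0412 to 0.345), and in its cDC2-like cells Ifi27l2a was 6.37 (2.04 to 2.36). In its CD4 T-like cells H2-D1 was 29.0 (22.1 to 23.1) and Cd74 5.23 (2.55 to 2.99). In the ndLN of WT1, Lyz1 was high at 0.551 (0.00379 to 0.0880) and Nr4a1 in pDC-like cells low at 3.62 (11.5 to 12.9). In the ndLN of KO2, Cd74 was 173 (132 to 136), Fcer2a 1.89 (0.975 to 1.12) and the B-like share 33.9% (17.7 to 20.1). Among dLN samples, H2-Eb2 was 1.02 in KO2 (0.672 to 0.723), Ccr10 0.145 in WT2 (0.0127 to 0.0260), the NK-like share 1.80% in WT2 (0.589 to 0.755), and Fcer1g in cluster 7 0.633 in WT1 (0.0291 to 0.0614).

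Genes whose dLN minus ndLN difference differed between genotypes by limma numbered 186 in all cells, 9 in CD8 T-like, 9 in pDC-like and 4 in B-like cells, 2 in cluster 8, 3 in cluster 2 alone and 2 in cluster 7 alone. Shares moved in opposite directions in the genotypes, which was not tested, for CD4 T-like cells (mean over the 4 mice -1.30 percentage points), CD8 T-like cells (-2.75), mature DC-like cells (-1.08), the unnamed cluster 16 (0.315), and cluster 14 (0.00560).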

How the results depend on the processing

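With 4 mice, 1 animal can decide a call, and the cause of each change below was not tested. Among values of single named genes, 996 kept their direction and side of the threshold under an alternative, 250 lost the call, 4 gained it and 9 reversed. Between nodes, the 0 genes of all cells became 3 with classes weighted alike and 0 to 2 with 1 mouse left out. B-like cells gave 1 with mean log values, 6 with limma-voom and 0 to 1 with 1 mouse left out. CD4 T-like cells gave 23 without the filter, 11 without the replicate block, 17 with summed UMIs, 26 with limma-voom and 19 to 63 with 1 mouse left out. CD8 T-like cells gave 0 without the filter, 0 without the block, 7 with summed UMIs, 16 with limma-voom and 1 to 17 with 1 mouse left out. Cluster 8 gave 1 with mean log values, 4 with limma-voom and 3 to 4 with 1 mouse left out. cDC2-like cells gave 5 and 4 with pseudocounts of 0.01 and 1, 2 without the filter, 3 without the block, 14 with summed UMIs, 0 with mean log values, 28 with limma-voom and 3 to 18 with 1 mouse left out. Mature DC-like cells gave 5 with limma-voom and 0 to 1 with 1 mouse left out. pDC-like cells gave 0 with a pseudocount of 0.01, 0 without the filter, 0 without the block, 0 with summed UMIs, 13 with limma-voom and 0 to 20 with 1 mouse left out. For the difference between genotypes, all cells gave 55 without the filter, 102 with summed UMIs, 546 with channel as a replicate block, 19 with classes weighted alike and 169 to 241 with 1 mouse left out. Its interferon genes were 6 with summed UMIs, 17 with the channel block and 7 to 15 with 1 mouse left out. With the channel block the classes gave 14 (B-like), 4 (CD4 T-like), 5 (cluster 8), 34 (CD8 T-like), 8 (cDC2-like), 6 (mature DC-like) and 26 (pDC-like). Without the filter B-like cells gave 0, CD8 T-like 3 and pDC-like 3. B-like cells gave 0 with a pseudocount of 0.01, CD4 T-like 1 and cluster 8 8 with a pseudocount of 1, and CD8 T-like 25 with summed UMIs. With 1 mouse left out the ranges were 0 to 19 (B-like), 0 to 18 (CD4 T-like), 0 to 8 (cluster 8), 3 to 40 (CD8 T-like), 0 to 14 (cDC2-like), 0 to 1160 (mature DC-like) and 11 to 41 (pDC-like). A fit without 1 mouse leaves a genotype with 1 animal, assumed to vary like the others. Reversed values were Fcer2a at -0.09 without B-like cells, H2-DMb2 at -0.05, H2-Ab1 at -0.03, Fscn1 at 0.00 and Ccl5 at 0.08 between genotypes with classes weighted alike, S100a8 at -0.03 between nodes and 0.04 between genotypes and S100a9 at -0.02 between nodes without cluster 14, and Lyz1 at -0.11 between nodes with limma-voom. With 1 mouse left out the B-like share difference was 5.36 to 9.59 points and the NK-like one -0.858 to -0.637. A minimum of 50 cells leaves no value for cluster 8, cDC2-like, mature DC-like and pDC-like cells. UMI depth limits genes near 0.05 UMIs per 10000.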
